A study of Rattus norvegicus with 28 samples.

Results

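The Cyp1 family of the rat has 3 members, Cyp1a1, Cyp1a2 and Cyp1b1, and all non-control probes that the array files name for them were taken: 1 probe for Cyp1a1 and 2 each for Cyp1a2 and Cyp1b1, 5 of the 41012 non-control probes. The probes are A_44_P321009 for Cyp1a1, A_42_P711139 (probe 1) and A_44_P142025 (probe 2) for Cyp1a2, and A_44_P251228 (probe 1) and A_44_P191778 (probe 2) for Cyp1b1. Each probe was kept apart, and all 5 were among the 37824 probes bright enough to be tested. RNA came from primary hepatocytes of 2 adult female Sprague-Dawley rats, called A and B, plated on Matrigel, held for 48 h in medium with insulin, transferrin, selenium and 0.1 uM dexamethasone, and then exposed for 24 h. The exposures were the dioxin TCDD at 0.01 or 1 nM, the furan TCDF at 0.1 or 10 nM, the furan PeCDF, which carries more chlorine than TCDF, at 0.02 or 2 nM, all in 0.1% DMSO, and no addition at all (untreated). Every one of the 28 arrays paired such a test RNA with DMSO RNA of the same animal, so DMSO cells are the control throughout; each group had 4 arrays, which are 2 animals in 2 dye orientations. The cultures are those of 2 animals only, 3 dishes were pooled for each RNA, and whether the DMSO RNA of an animal was 1 preparation for all its arrays is not stated.

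Cyp1 enzymes are haem-containing monooxygenases of the endoplasmic reticulum that oxidise planar aromatic compounds. Their genes are the classical targets of the aryl hydrocarbon receptor (AHR), a ligand-activated transcription factor that binds dioxins and furans, pairs with ARNT in the nucleus and binds a DNA element with the core GCGTG. Cyp1a1 acts on polycyclic aromatic hydrocarbons, Cyp1a2 is a liver enzyme that oxidises aromatic amines and caffeine and binds dioxins, and Cyp1b1 hydroxylates oestrogens and aromatic hydrocarbons and is little expressed in liver.

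Promoter windows of 250 bases before to 50 bases after the start site were supplied from RefSeq for Cyp1a2 and Cyp1b1. They are shown since the GCGTG core separates them. Capitals mark GCGTG, read on either strand (CACGC on the strand printed). The Cyp1b1 window lies at chr6:21094315-21094614 on the plus strand and the Cyp1a2 window at chr8:66978100-66978399 on the minus strand of GRCr8, each printed 5′ to 3′ along its gene.
Cyp1b1: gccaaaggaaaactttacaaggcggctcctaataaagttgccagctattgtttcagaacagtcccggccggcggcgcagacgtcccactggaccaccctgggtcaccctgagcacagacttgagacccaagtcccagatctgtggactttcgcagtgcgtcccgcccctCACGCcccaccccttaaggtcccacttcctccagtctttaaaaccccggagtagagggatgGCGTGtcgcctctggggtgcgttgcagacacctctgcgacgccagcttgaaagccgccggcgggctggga
Cyp1a2: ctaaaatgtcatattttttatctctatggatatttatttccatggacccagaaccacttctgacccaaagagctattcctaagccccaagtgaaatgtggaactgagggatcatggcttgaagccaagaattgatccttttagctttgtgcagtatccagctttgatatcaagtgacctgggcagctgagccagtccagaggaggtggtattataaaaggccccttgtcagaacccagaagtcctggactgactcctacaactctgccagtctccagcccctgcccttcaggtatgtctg
The Cyp1b1 window held 2 matches, which begin 81 and 20 bases before the start site, and the second of them is also a match of the longer TNGCGTG. The Cyp1a2 window held neither motif. Of all 33469 promoter windows 29.7% held GCGTG and 4.89% held TNGCGTG on either strand, so a match in a window is common and is a description only. In the same annotation Cyp1a1 and Cyp1a2 are neighbours, with no other gene starting between them, and Cyp1b1 lies on another chromosome.

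All 3 genes rose over DMSO with the upper dose of each compound, Cyp1b1 by its probe 1 alone with TCDF. At the lower doses Cyp1a1 and Cyp1a2 had ratios above DMSO on every array, of which only Cyp1a1 and Cyp1a2 probe 1 with TCDD 0.01 nM passed the test, and the Cyp1b1 ratios lay near 0. With TCDD 1 nM 5 of 5 probes were higher than in DMSO at an adjusted p under 0.05 in the limma fit, against 4.54% of all probes called higher and 10.6% called in either direction. With PeCDF 2 nM 5 of 5 were higher (1.69% of all probes higher, 4.22% either way), and with TCDF 10 nM 4 of 5 (0.984% higher, 2.09% either way). With TCDD 0.01 nM 2 of 5 were higher, the Cyp1a1 probe and Cyp1a2 probe 1, against 0.0872% of all probes higher and 0.442% either way. With TCDF 0.1 nM and PeCDF 0.02 nM limma called 0 of 5 probes, where the share of all probes called was also 0. At an unadjusted p under 0.05, 3 of 5 passed with TCDF 0.1 nM and 2 of 5 with PeCDF 0.02 nM, against 7.54% of all probes in each. In untreated cells limma called 0 of 5 (0.0423% of all probes either way, 0.0238% higher), and 0 of 5 passed at an unadjusted p under 0.05, against 10.5% of all probes. In such bulk RNA, fewer cells of a type and less RNA per cell cannot be told apart.

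**Figure D1:**
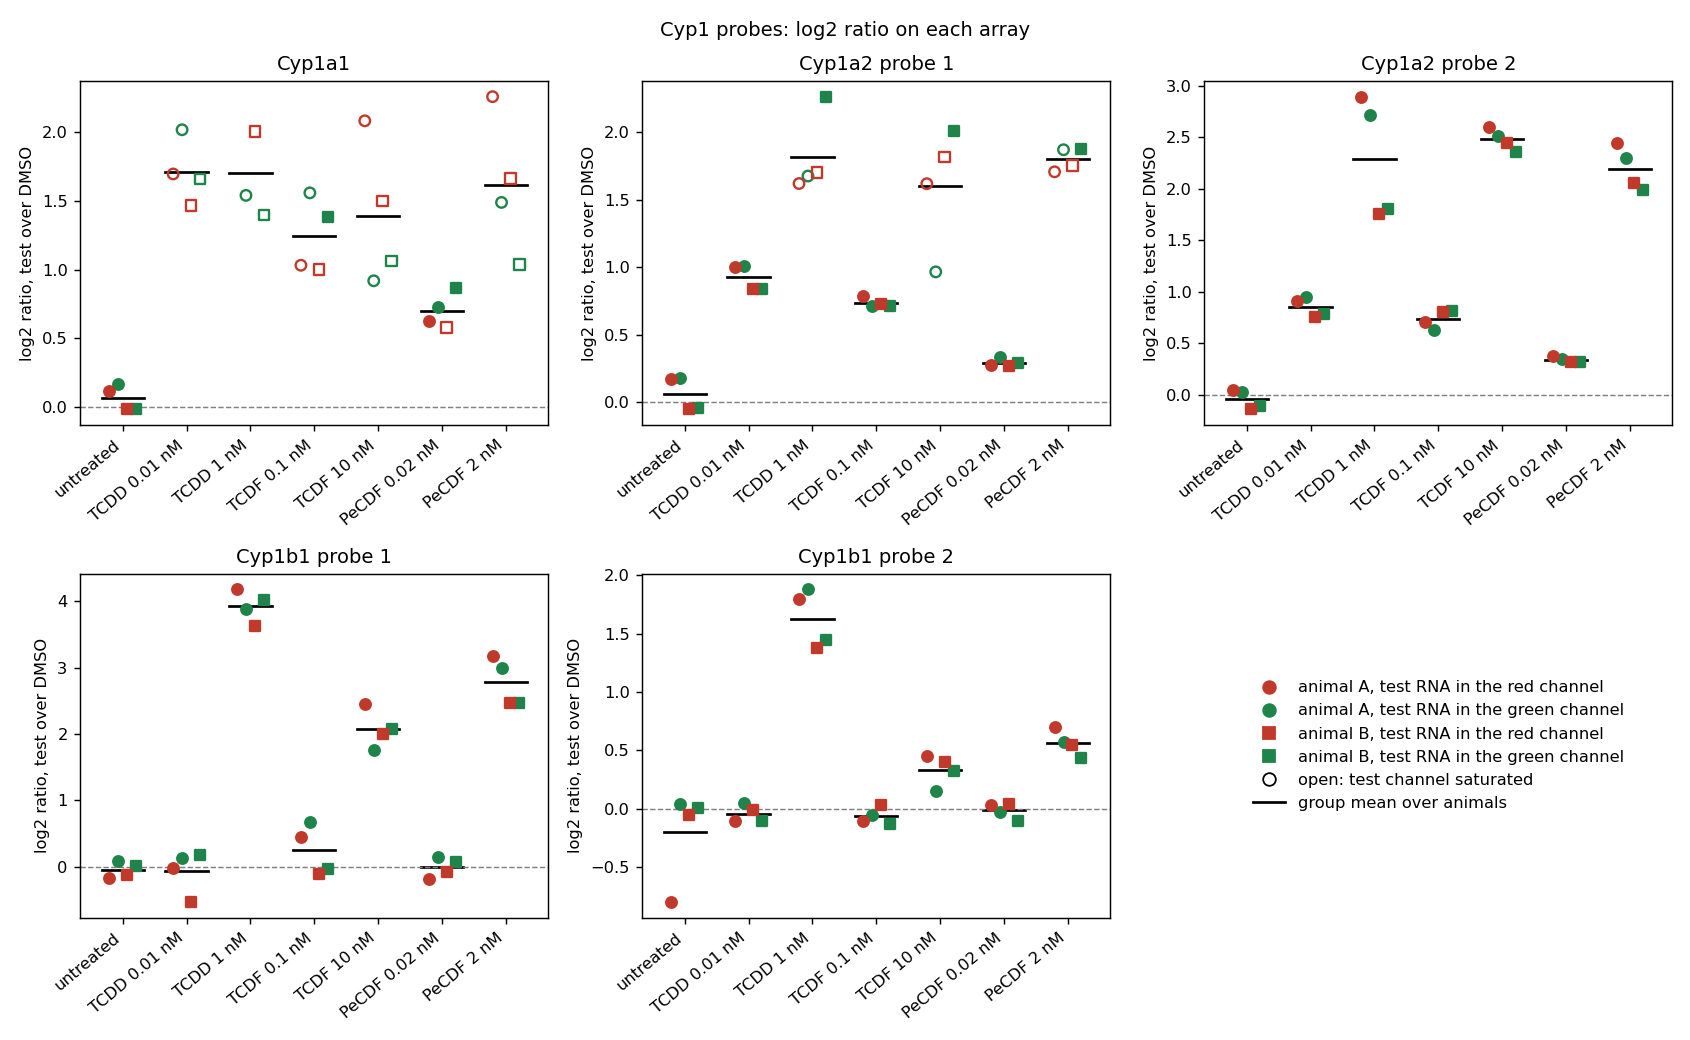
Log2 ratio of test RNA over DMSO RNA on each array (vertical axis) for the 5 probes, in 7 groups (horizontal axis), by animal and by the dye of the test RNA; open symbols are saturated test spots and lines are group means over animals. One Cyp1a1 spot marked by the scanner software on a TCDD 1 nM array is left out. Cyp1b1 probe 1 lies between 3.64 and 4.18 with TCDD 1 nM and between -0.53 and 0.17 with TCDD 0.01 nM, whereas Cyp1a1 is saturated at both doses.

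Cyp1a1 was so bright that the scanner limited its measurement. The signal above local background, in scanner units, was 65195 and 65196 in the red and 65257 and 65258 in the green test channel on the TCDD 1 nM arrays, 65209, 65216, 65273 and 65279 with PeCDF 2 nM, and 65214, 65217, 65282 and 65277 with TCDF 10 nM; the highest mean signal of any spot was 65518. Every test channel at the upper doses was therefore saturated, and so was every one with TCDD 0.01 nM, where the signals were 65199, 65198, 65255 and 65255. On the same TCDD 0.01 nM arrays the DMSO channel, never saturated for Cyp1a1, gave 10198 and 15117 in green and 31283 and 45533 in red. At the lowest furan exposures not every test channel was flagged as saturated: 3 of 4 were with TCDF 0.1 nM and 1 of 4 with PeCDF 0.02 nM. The unflagged TCDF 0.1 nM channel had 64819, close to the ceiling. Untreated cells gave 27889 and 29085 in red and 22477 and 23162 in green, clear of every dioxin or furan value measured in the same dye.

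The fold of Cyp1a1 over the DMSO signal of the same arrays can thus only be bounded from below. It was at least 3.08-fold higher with TCDD 1 nM than in DMSO over the 3 arrays without a marked spot, and the fit rested there on animal B alone (log2 ratio 1.70 ± 0.16 SE, n = 1, adjusted p = 0.000271), which is assumed to vary like the other groups. It was at least 3.27-fold higher with TCDD 0.01 nM (1.71 ± 0.11, n = 2, adjusted p = 0.000273), a call that missed the threshold when the untreated and TCDD groups were fitted alone (adjusted p = 0.0546). PeCDF 2 nM gave at least 3.06-fold (1.61 ± 0.11, adjusted p = 0.000345) and TCDF 10 nM at least 2.62-fold (1.39 ± 0.11, adjusted p = 0.000644). These bounds do not rank the groups, and no fold is given between the TCDD doses because both were saturated. They take the DMSO signal of the same arrays as it stands, which in green was dimmer at the upper doses. Against the test channel of untreated arrays, Cyp1a1 was 2.76-fold higher with TCDD 0.01 nM and 2.46-fold with TCDD 1 nM. On that scale it was 2.19-fold higher with PeCDF 2 nM and 2.14-fold with TCDF 10 nM. Those levels are clipped as well and were not tested. With TCDF 0.1 nM the log2 ratio over DMSO was 1.24 ± 0.11 (adjusted p = 0.0586), a clipped value. The probe passed there with the animal as a replicate block (adjusted p = 0.0105). With PeCDF 0.02 nM the log2 ratio was 0.70 ± 0.11 (adjusted p = 0.444), from arrays at 0.62, 0.58, 0.73 and 0.86. The array at 0.58 was saturated. The untreated arrays lay at 0.11, -0.02, 0.17 and -0.02, below all arrays with a compound.

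At the upper doses the Cyp1a1 ratio also differed between the dye orientations. In green the DMSO signal was 4568 and 8399 on the TCDD 1 nM arrays, 9181 and 12299 on the TCDF 10 nM arrays and 7484 and 9527 on the PeCDF 2 nM arrays, against 13958 and 18807 on untreated arrays. In red it was 42003 and 48422, 50063 and 57264, and 48622 and 51265 on the same groups of arrays, against 36757 and 42461 on untreated arrays. The DMSO channel was thus dimmer in green on every upper-dose array than on any untreated array, and in red each was brighter than the untreated array of the same animal. The bound with TCDF 10 nM was 3.46-fold where the test RNA was red and 1.99-fold where it was green, and with PeCDF 2 nM 3.90-fold and 2.40-fold. With TCDD 1 nM it was 4.02-fold with red and 2.77-fold with green test RNA. With TCDD 0.01 nM, also saturated throughout, it went the other way, at 2.99-fold with red and 3.58-fold with green. By the extraction dates in the file headers the arrays fall into 2 sessions, the untreated and TCDD groups and the furan groups. Session means that split, not a recorded hybridisation or scan batch. The orientations were extracted on different days within each session, so dye and day cannot be told apart.

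Cyp1a2 was measured by a probe that reached saturation (probe 1) and by a probe that never did (probe 2), and both rose with each upper dose. On probe 2 the TCDF 10 nM arrays had log2 ratios of 2.60, 2.45, 2.52 and 2.36 over DMSO, a 5.58-fold increase (2.48 ± 0.18, adjusted p = 0.000232). The TCDD 1 nM arrays split by animal, with 2.89 and 2.71 in animal A and 1.75 and 1.80 in animal B, and averaged 4.89-fold (2.29 ± 0.18, adjusted p = 4.77e-05). The PeCDF 2 nM arrays had 2.44 and 2.30 in animal A and 2.05 and 1.98 in animal B, 4.58-fold over DMSO (2.20 ± 0.18, adjusted p = 0.000432). The arrays of these 3 groups overlap one another and lie wholly above those of all other groups.

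The test signals of Cyp1a2 probe 2 show the same split. With TCDD 1 nM they were 20046 in red and 11111 in green in animal A and 5351 and 4580 in animal B, whereas the DMSO channel of those arrays had 1211 and 914 in green and 2890 and 2476 in red. The DMSO signals of the 2 animals thus lay closer together than the TCDD signals. With TCDF 10 nM the test signals were 16100 and 13566 in animal A and 12623 and 8372 in animal B. Untreated cells had 1540, 1514, 1083 and 1045, within the range of their own DMSO channel at 873 to 2525.

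At the lower doses Cyp1a2 stood above DMSO on every array, though only 1 of its tests passed. On probe 1 TCDD 0.01 nM gave 1.00, 0.84, 1.01 and 0.84, a 1.90-fold increase (0.92 ± 0.12, adjusted p = 0.00833), with no test spot saturated; fitted with the untreated and TCDD groups alone its adjusted p was 0.0853. On probe 2 the same exposure gave 0.91, 0.76, 0.95 and 0.78 (0.85 ± 0.18, adjusted p = 0.0973). TCDF 0.1 nM had 0.73 ± 0.12 on probe 1 and 0.74 ± 0.18 on probe 2, and PeCDF 0.02 nM had 0.29 ± 0.12 and 0.34 ± 0.18, none of which passed (adjusted p from 0.279 to 0.728). The 4 arrays of PeCDF 0.02 nM lay within 0.27 and 0.33 on probe 1 and within 0.32 and 0.37 on probe 2. Untreated arrays reached 0.18 and 0.04. As the 4 arrays are dye swaps of 2 animals, their closeness does not offset the failed tests. They also belong to another session than the untreated arrays. Untreated cells had means of 0.06 ± 0.12 and -0.04 ± 0.18.

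Probe 1 of Cyp1a2 reached the scanner's limit at the upper doses. Its test channel was saturated on 3 of 4 arrays with each of TCDD 1 nM, TCDF 10 nM and PeCDF 2 nM, and it gave 3.52-fold (1.82 ± 0.12, adjusted p = 2.09e-05), 3.04-fold (1.60 ± 0.12, adjusted p = 0.000259) and 3.48-fold (1.80 ± 0.12, adjusted p = 0.000136). These fitted folds are clipped by the saturated test spots, so they are not exact and give no order against probe 2. The arrays not flagged as saturated had 2.26 with TCDD 1 nM, 2.01 with TCDF 10 nM and 1.87 with PeCDF 2 nM. Those with TCDD and TCDF were the highest of their 4, while a saturated PeCDF 2 nM array also had 1.87. The test signals of these unflagged spots were 59988, 64505 and 56898, near the scanner's limit, so their values may be clipped as well. With TCDF 10 nM the green array of animal A had only 0.97, against 1.62 on its red array.

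**Figure D2:**
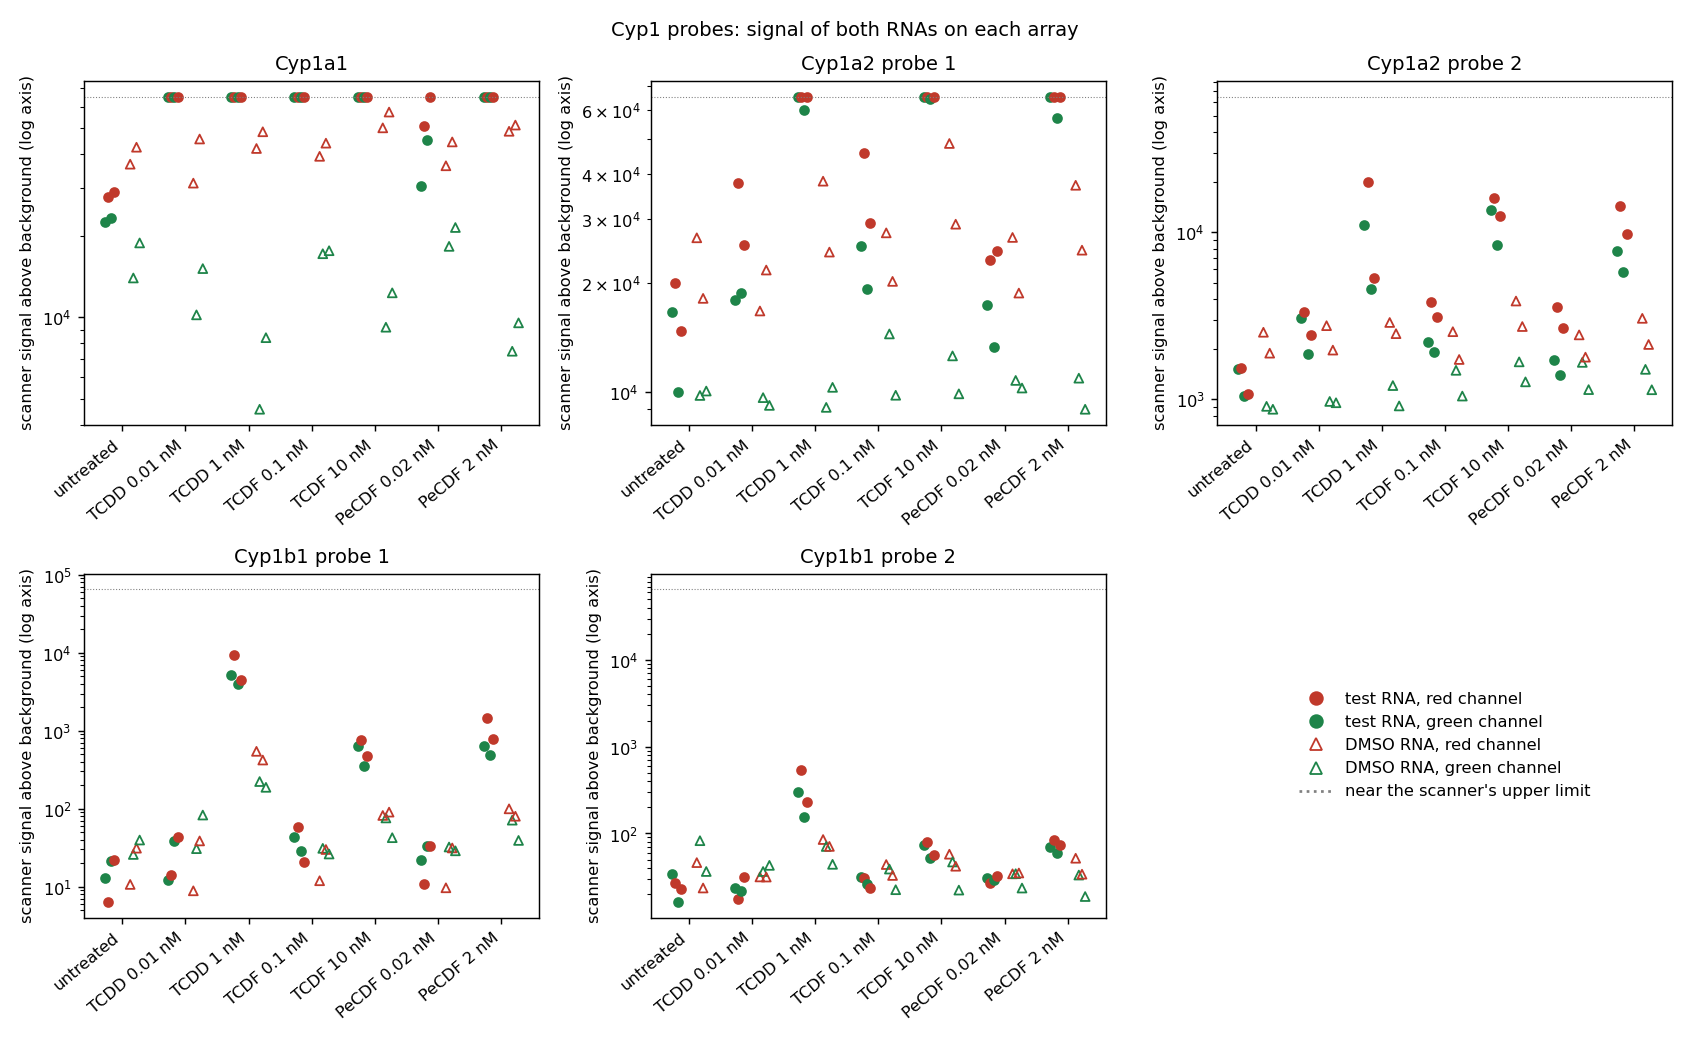
Scanner signal above local background (vertical log axis) of test RNA (filled) and DMSO RNA (open) on each array, by group and by dye, for the 5 probes; the dotted line is close to the highest signal the scanner reports. Cyp1a1 sits at that line in every TCDD sample, Cyp1a2 probe 2 stays under it, and the DMSO signal of Cyp1b1 probe 1 is 188 to 544 on TCDD 1 nM arrays, against 10.7 to 39.6 on untreated arrays.

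Cyp1b1, near the edge of detection in untreated cells, rose with all 3 upper doses, and TCDD 1 nM gave the highest values. On probe 1 the TCDD 1 nM arrays had log2 ratios of 4.18, 3.64, 3.88 and 4.02, a 15.2-fold increase over DMSO (3.93 ± 0.15, adjusted p = 1.14e-06). PeCDF 2 nM had 3.18, 2.47, 3.00 and 2.47, 6.86-fold (2.78 ± 0.15, adjusted p = 8.3e-05), with animal A the higher. TCDF 10 nM had 2.45, 2.01, 1.76 and 2.08, 4.21-fold (2.07 ± 0.15, adjusted p = 0.000232). All arrays of these 3 groups stand above all others, and those of TCDD 1 nM stand above those of the furans. The PeCDF 2 nM arrays, at 2.47 or more, barely clear the TCDF 10 nM arrays, at 2.45 or less. With the scanner software's log ratio the furan groups overlap, at 3.07 to 3.71 for PeCDF and 2.60 to 3.70 for TCDF. The 4 arrays of a group are dye swaps of 2 animals.

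At the lower doses Cyp1b1 probe 1 lay near 0. TCDD 0.01 nM had -0.02, -0.53, 0.13 and 0.17 (-0.06 ± 0.15, adjusted p = 0.979), and PeCDF 0.02 nM had -0.19, -0.07, 0.15 and 0.07 (-0.01 ± 0.15). TCDF 0.1 nM had 0.44 and 0.68 in animal A and -0.10 and -0.03 in animal B (0.25 ± 0.15, adjusted p = 0.817). Untreated arrays lay between -0.17 and 0.08. These values come from spots near background: the test channel was well above it on 2 of 4 arrays in untreated cells and with TCDD 0.01 nM, on 3 of 4 with PeCDF 0.02 nM and on 4 of 4 with TCDF 0.1 nM. The same exposure to TCDD 0.01 nM had saturated Cyp1a1 in all 4 test channels.

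Probe 2 of Cyp1b1 gave smaller ratios at the upper doses, with these doses in the same order. It rose 3.08-fold with TCDD 1 nM, from arrays at 1.80, 1.38, 1.88 and 1.44 (1.62 ± 0.10, adjusted p = 8.44e-06), and 1.48-fold with PeCDF 2 nM, from 0.70, 0.54, 0.57 and 0.44 (0.56 ± 0.10, adjusted p = 0.0115). With TCDF 10 nM it had 0.45, 0.40, 0.15 and 0.32 (0.33 ± 0.10, adjusted p = 0.132). Its test signals were 541, 230, 301 and 157 for TCDD 1 nM, 84.9, 72.9, 70.6 and 59.4 for PeCDF 2 nM and 80.1, 56.0, 73.8 and 52.5 for TCDF 10 nM, against 27.1, 22.6, 34.1 and 16.3 in untreated cells. At the lower doses its group means lay between -0.06 and -0.01, and in untreated cells the mean was -0.20 ± 0.10, none called. All test spots of probe 2 were well above background, and even the weakest value at an upper furan dose exceeds the strongest untreated one.

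The ratios of Cyp1b1, which is dim in DMSO, changed with the treatment of background. With the scanner software's log ratio, which adds no offset, probe 1 had 4.11 for TCDD 1 nM, 3.44 for PeCDF 2 nM and 3.00 for TCDF 10 nM. Without background correction the values were 3.24, 1.57 and 1.27. Probe 2 had 2.19, 1.12 and 0.80 with the log ratio of the software, where TCDF 10 nM passed (adjusted p = 0.0185), as it also did with the furan groups fitted alone (adjusted p = 0.0263). Without background correction it had 0.71, 0.17 and 0.13, and PeCDF 2 nM no longer passed (adjusted p = 0.295).

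The DMSO channel of Cyp1b1 probe 1 was itself brighter on upper-dose arrays. With TCDD 1 nM the test signals of probe 1 were 9304 and 4512 in red and 5245 and 3994 in green, and the DMSO signals of those arrays 223 and 188 in green and 544 and 420 in red. With PeCDF 2 nM the test signals were 1444, 777, 638 and 490 and the DMSO signals 71.2, 39.1, 99.5 and 80.0, and with TCDF 10 nM the test signals were 765, 469, 639 and 351 and the DMSO signals 76.0, 42.4, 81.8 and 90.3. On untreated arrays the test signals were 6.36, 22.3, 12.8 and 21, and the DMSO signals 25.9 and 39.6 in green and 10.7 and 31.1 in red. After normalization within and between arrays the DMSO channel of probe 1 was 5.35-fold higher on TCDD 1 nM arrays, 1.81-fold on TCDF 10 nM arrays and 1.55-fold on PeCDF 2 nM arrays than on untreated arrays. The DMSO channel of probe 2 was 1.24-fold, 0.928-fold and 0.885-fold of the untreated arrays in the same order of groups. That untreated reference holds 1 far spot, at a log2 level of 7.20 against 6.33, 6.39 and 6.29 on the other arrays. With green test RNA, which leaves this spot out, the log2 differences of probe 2 were 0.44, 0.19 and 0.01. For probe 1 on the upper-dose arrays the mean DMSO signal was 2.97% to 17.4% of the mean test signal for a given dye orientation. On untreated arrays it was 124% and 229%. The source of this signal was not tested.

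Set against the test channel of untreated arrays rather than against DMSO on the same array, Cyp1b1 probe 1 was 84.3-fold higher for TCDD 1 nM, 11-fold for PeCDF 2 nM and 7.88-fold for TCDF 10 nM. These levels were not tested, carry the offset of 50 scanner units that damps dim spots, and rest on untreated spots of which 2 of 4 were not well above background. Cyp1a2 probe 2 was 6.67-fold, 5.88-fold and 8.05-fold higher on this scale in the same order of groups, and its DMSO channel 1.32-fold, 1.25-fold and 1.40-fold. The furan arrays were extracted in another session than the untreated and TCDD arrays, so session and furan cannot be told apart on this scale. In that session the lower doses, TCDF 0.1 nM and PeCDF 0.02 nM, had log2 differences of 0.27 and 0.03 for Cyp1b1 probe 1. For Cyp1a2 probe 2 they were 0.85 and 0.52.

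**Figure D3:**
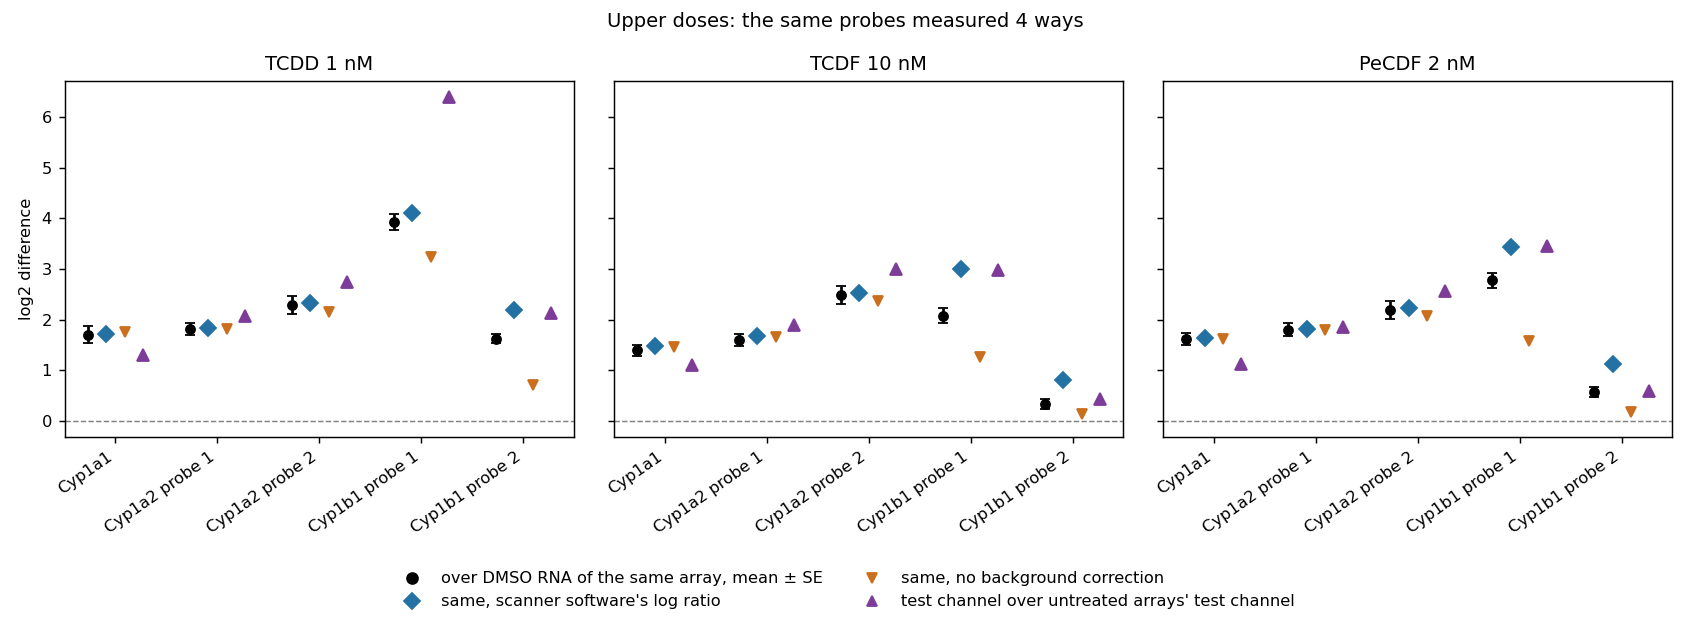
Log2 difference (vertical axis) of each probe at the upper dose of each compound: over DMSO RNA of the same array with SE, by the scanner software's log ratio, without background correction, and as the test channel over the test channel of untreated arrays. The measures lie closer together for Cyp1a2 and spread for Cyp1b1 probe 1, which with TCDD 1 nM ranges between 3.24 and 6.40.

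The dose steps within a compound asked how far the higher dose raised each gene above the lower one. For TCDD 1 nM minus 0.01 nM, 4 of 5 probes were called higher (3.61% of all probes either way, 1.35% higher): Cyp1b1 by 3.99 ± 0.21 (adjusted p = 3.05e-05) and 1.66 ± 0.14 on the log2 scale, Cyp1a2 by 0.89 ± 0.17 on probe 1 and 1.44 ± 0.25 on probe 2. The probe 1 steps of Cyp1a2, here and for the furans, are clipped at the upper dose, where 3 of 4 test spots were saturated. For PeCDF 2 nM minus 0.02 nM, 3 of 5 were called (0.0873% either way, 0.0265% higher): Cyp1b1 probe 1 by 2.79 ± 0.21 (adjusted p = 0.00201), Cyp1a2 probe 1 by 1.51 ± 0.17 and probe 2 by 1.86 ± 0.25. Cyp1a1 differed there by 0.91 ± 0.16, a clipped value, since all 4 test spots were saturated at 2 nM and 1 of 4 at 0.02 nM (adjusted p = 0.123, and 0.0389 with the animal as a replicate block). The Cyp1a2 step of PeCDF on probe 2 was lost with the scanner software's log ratio (adjusted p = 0.0698), that on probe 1 with the furans fitted alone (adjusted p = 0.0686), and the TCDD step of Cyp1a2 probe 2 with the untreated and TCDD groups alone (adjusted p = 0.0987). For TCDF 10 nM minus 0.1 nM, 2 of 5 were called (0.0899% either way, 0.0185% higher): Cyp1b1 probe 1 by 1.83 ± 0.21 (adjusted p = 0.0176) and Cyp1a2 probe 2 by 1.74 ± 0.25 (adjusted p = 0.0462). Neither TCDF call held with the scanner software's log ratio (adjusted p = 0.151 and 0.0688) or without background correction (adjusted p = 0.127 and 0.116), and that of Cyp1b1 not with the furans alone (adjusted p = 0.121). With test-channel levels in place of ratios, the Cyp1b1 steps of TCDD held (6.23 and 2.18) and those of Cyp1a2 did not pass (1.25 and 1.64, adjusted p = 0.145 and 0.362). No furan step passed on that scale, though the Cyp1b1 probe 1 values were 3.42 for PeCDF (adjusted p = 0.1) and 2.70 for TCDF (adjusted p = 0.142).

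The compounds were not given at matched doses: TCDF 10 nM and PeCDF 2 nM stood beside TCDD 1 nM. The furan arrays were also extracted in another session, so compound, dose and session cannot be told apart. Of 3 pairs of groups, both pairs with TCDD differed in Cyp1b1, and no pair passed for Cyp1a2. TCDD 1 nM minus TCDF 10 nM gave 1.85 ± 0.21 for Cyp1b1 probe 1 (adjusted p = 0.0203) and 1.29 ± 0.14 for probe 2 (adjusted p = 0.014), 2 of 5 probes called (0.0767% of all probes either way, 0.0397% higher). TCDD 1 nM minus PeCDF 2 nM gave 1.15 ± 0.21 (adjusted p = 0.0445) and 1.06 ± 0.14 (adjusted p = 0.0184), again 2 of 5 (0.801% of all probes either way, 0.402% higher). In all these groups Cyp1a1 was saturated on 4 of 4 and Cyp1a2 probe 1 on 3 of 4 test channels, so these 2 probes could hardly differ and only Cyp1a2 probe 2 and the Cyp1b1 probes bear on the comparison. With the scanner software's log ratio none of these 4 differences passed (1.11, 1.39, 0.68 and 1.07, adjusted p from 0.0764 to 0.519), whereas with test-channel levels all 4 did (adjusted p from 0.0167 to 0.0358). Between PeCDF 2 nM and TCDF 10 nM limma called 0 of 5 (0% of all probes), and 1 of 5 passed at an unadjusted p under 0.05, against 2.82% of all probes: Cyp1b1 probe 1, higher by 0.70 with a 95% interval of 0.23 to 1.17.

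For Cyp1a2 probe 2 the interval of TCDD 1 nM minus TCDF 10 nM ran from -0.76 to 0.37, of TCDD 1 nM minus PeCDF 2 nM from -0.47 to 0.66, and of PeCDF 2 nM minus TCDF 10 nM from -0.85 to 0.28 on the log2 scale. With 2 animals, differences within these intervals remain possible.

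Over the 14 animal-level ratios Pearson's r was 0.92 between the Cyp1b1 probes and 0.91 between the Cyp1a2 probes, and Cyp1a1 had 0.72 to 0.78 with Cyp1a2 and 0.54 to 0.55 with Cyp1b1 over 13. Among the 1296 other probes with a symbol, full data and group means spread over at least 0.5, Cyp1a2 probe 2 was most like Nqo1, a quinone reductase of the AHR battery (r = 0.96), and then Txnrd1 (0.95), Rassf4 (0.94) and Bdkrb2 (0.93). Cyp1b1 probe 1 was most like Ddit4l (0.97), Lect2 (0.97), Hsd17b2 (0.96) and Selenbp1 (0.96), and Cyp1b1 probe 2 like the transcription factor Pou3f1 (0.98), the growth factors Ereg (0.97) and Areg (0.94), and Tpbg (0.95). Cyp1a2 probe 1 was most like Lect2 (0.94), Defb1 (0.91), Lbp (0.91) and Ahcy (0.90), and the saturated Cyp1a1 had its highest values with Map1lc3b (0.85), Lyn (0.81), Dst (0.76) and Txnrd1 (0.75). These correlations are descriptions: the points share arrays, the DMSO RNA of 2 animals and the contrast of upper doses with the rest.

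Other genes of the AHR battery also rose with the upper doses. Of 13 measured genes of 14 listed, 9 rose and 1 fell with TCDD 1 nM, where 4.54% of all probes were called higher and 6.05% lower, and the median log2 ratio was 0.80, against -0.00254 over all probes. With PeCDF 2 nM 6 rose (1.69% of all probes higher, 2.53% lower), with a median of 0.44 against -2.72e-05. With TCDF 10 nM 5 rose (0.984% higher, 1.11% lower), with a median of 0.53 against 0.00344. Nqo1 rose in all 3, by 1.54 ± 0.18, 1.61 ± 0.18 and 1.44 ± 0.18, and so did Cyp2a1, a steroid hydroxylase, Nfe2l2, the transcription factor NRF2, Ugt1a6, a glucuronosyltransferase, and Ugdh, which makes its cofactor. Tiparp, an ADP-ribosylating enzyme that limits AHR activity, rose with TCDD 1 nM (1.83 ± 0.25) and PeCDF 2 nM (1.53 ± 0.25) and had 0.80 ± 0.25 with TCDF 10 nM (adjusted p = 0.163). Aldh3a1, an aldehyde dehydrogenase, rose with TCDD 1 nM (2.28 ± 0.37, adjusted p = 0.00301), with 1.20 ± 0.37 and 1.15 ± 0.37 for PeCDF 2 nM and TCDF 10 nM. Xdh, xanthine dehydrogenase, fell by 0.27 with TCDD 1 nM. GCGTG stood in 7 of 12 promoter windows of these genes.

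Of the receptor's own genes, Ahr had 0.04 ± 0.05 for TCDD 1 nM, 0.02 ± 0.05 for PeCDF 2 nM and -0.05 ± 0.05 for TCDF 10 nM, and its partner Arnt had -0.11 ± 0.04, 0.09 ± 0.04 and -0.00 ± 0.04, none called. Of 11 genes of the complex and its chaperones and coactivators, 1 rose with each upper dose, beside 4.54%, 1.69% and 0.984% of all probes called higher with TCDD 1 nM, PeCDF 2 nM and TCDF 10 nM. It was the ubiquitin ligase scaffold Cul4b, by 0.27 ± 0.04, 0.17 ± 0.04 and 0.25 ± 0.04.

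Among 13 genes that supply electrons or haem to microsomal cytochromes or act on their products, 2 rose and 3 fell with TCDD 1 nM, 1 rose and 1 fell with PeCDF 2 nM and 1 rose with TCDF 10 nM. Over all probes 10.6%, 4.22% and 2.09% were called in either direction in these groups. Cyb5a, cytochrome b5, rose in all 3 groups, by 0.38 ± 0.07, 0.57 ± 0.07 and 0.60 ± 0.07. Por, the reductase that feeds electrons to these enzymes, fell by 0.47 with TCDD 1 nM (adjusted p = 0.00741) and had 0.05 ± 0.09 with PeCDF 2 nM and -0.26 ± 0.09 with TCDF 10 nM. Cyb5r3, a reductase of cytochrome b5, fell by 0.60 with TCDD 1 nM. Alas1, the first enzyme of haem synthesis, fell by 0.28 with TCDD 1 nM and 0.36 with PeCDF 2 nM and had -0.27 ± 0.06 with TCDF 10 nM (adjusted p = 0.0693).

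**Figure D4:**
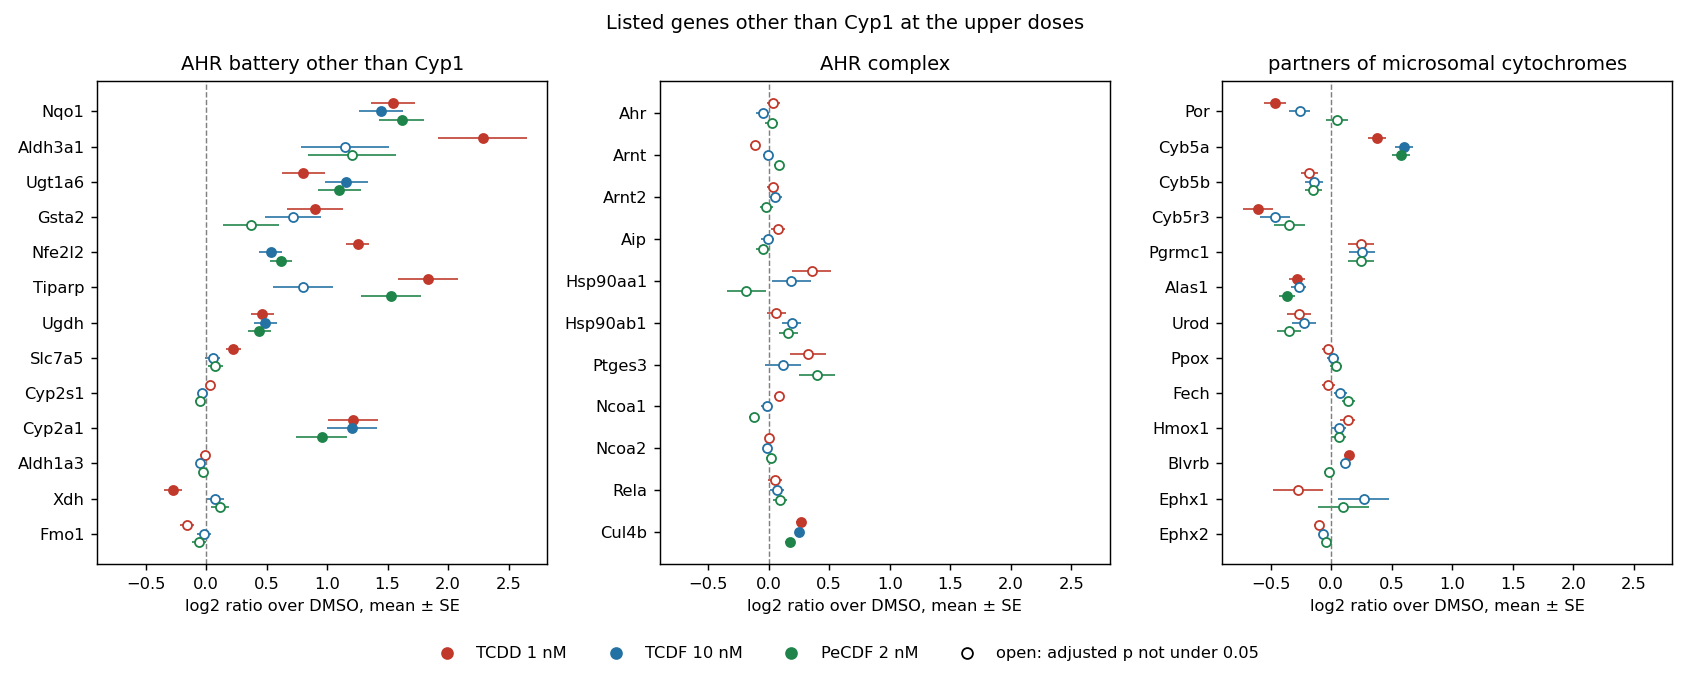
Log2 ratio over DMSO with SE (horizontal axis) of the listed genes (vertical axis) at the upper dose of TCDD, TCDF and PeCDF; filled points have an adjusted p under 0.05. Nqo1 lies between 1.44 and 1.61 in all 3 groups, Ahr between -0.05 and 0.04, and Por is called only with TCDD 1 nM.

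Hepatocyte markers were strong in all groups, with Alb and Tf saturated in every test channel. All 10 Kupffer cell and 11 stellate cell markers measured were well above background in the test channel of every array. Of all 41012 non-control probes, 25713 were so in both channels of every array. This flag alone therefore does not show which cells were present. With TCDD 1 nM, where 6.05% of all probes were called lower, 4 of 10 Kupffer cell markers fell (Cd163, Vsig4, Lyz2 and Cybb), 3 of 11 stellate cell and fibroblast markers (Vim, Rgs5 and Lox) and 2 of 7 bile duct markers (Prom1 and Anxa13). For the Kupffer cell list the summed signals over both dyes were 6417 to 14542 in the test and 6455 to 19829 in the DMSO channel. Untreated arrays had 8124 to 13913 and 6362 to 20135. For the stellate cell list the sums were 1967 to 3587 and 2351 to 4917, against 2776 to 3533 and 2248 to 5051 on untreated arrays. For the bile duct list they were 1099 to 2065 and 1463 to 3390, against 1728 to 2601 and 1456 to 3560. These ranges pool red and green spots, so they are too wide to decide whether a sum fell. The hepatocyte marker Cps1 fell by 0.84 with TCDD 1 nM. The 7 endothelial markers measured had a median log2 ratio of -0.01 in that group. With the furans Anxa13 fell, and with PeCDF 2 nM Col3a1, Dcn and the hepatocyte gene Tat rose and Col1a1 fell. None of the measured Kupffer or stellate cell markers was at 0, and any part of such cells in the Cyp1 values was not tested.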

How the data were processed

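The authors hybridised 28 Agilent 2-colour arrays, and the intensity of each spot in the red and the green channel was extracted with Agilent Feature Extraction, A.7.5.1 per the file headers and 9.1 per the submitters' processing notes. The series-wide values as deposited are log10 ratios, which equalled the scanner's log10 ratios turned to test over DMSO (largest difference 4.871e-06). From the deposited intensities, spots were background-corrected (normexp, offset 50) and loess-normalised within arrays with the 2256 control spots at weight 0, and 1067 marked spots (0.0921%) were dropped. The log2 ratios of the dye-swapped arrays of an animal were averaged, which gave 14 values, and these were fitted by group in limma 3.58.1 (R 4.3.3, data.table version 1.17.8) with each probe alone and Benjamini-Hochberg adjustment over the 37824 probes (92.2%) that were well above background on all 4 test channels of a group or on at least 14 DMSO channels. The threshold was an adjusted p of 0.05, and all adjusted p-values printed are limma's. The ± after a log2 value is its SE, with n = 2 animals a group unless stated. A probe saturated in all test channels of a group has only a lower bound over the DMSO signal of its arrays. One saturated in some of them has a clipped value. Probe symbols were updated through RefSeq by accession (8031), gene ID (8676), symbol (1374) or synonym (426), and 22505 probes kept none. Listed genes are given by their brightest probe, and genes of like pattern are the 4 with the highest Pearson's r to each member probe. The script was tested on simulated data. The arrays carry signal, not counts, so the number of animals limits precision. The p-values rest on the difference between the 2 animals within each group, pooled over groups and moderated by limma. The 7 residual degrees of freedom, fewer with missing values, thus come from the same 2 animals. Both animals served every group, which pairs the samples by design: the deviations of an animal from the group means correlated between groups by -0.42 to 0.57 (median 0.12). Alternatives were the scanner's log ratio, the deposited series values, other background, filter, dye and saturation settings, the animal as a replicate block, each session alone, leaving out an animal, and, chosen after seeing the data, test-channel levels alone. The members and gene lists were chosen with earlier results of these data known. Probe sequences are not used here, so cross-hybridisation between related genes was not tested.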

Additional observations from a re-analysis of the deposited data

Results flagged for a closer look

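Of 34 sets of 4 arrays checked for an array far from the other 3, where chance flags about 1 in 20, 2 stood out. Cyp1a2 probe 1 had a log2 ratio of 2.26 on the TCDD 1 nM array of animal B with green test RNA. It was the only one of the 4 whose test spot was not flagged as saturated. Cyp1b1 probe 2 had -0.80 on an untreated array of animal A, where the test signal was 27.1 and the DMSO signal 82.6.

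The DMSO channel itself was brighter on some upper-dose arrays than on untreated arrays, in both dyes. For Cyp1b1 probe 1 the log2 difference was 2.42 on TCDD 1 nM arrays, 0.85 on TCDF 10 nM arrays and 0.63 on PeCDF 2 nM arrays. For Cyp1a2 probe 2 it was 0.49 on TCDF 10 nM arrays.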

How the results depend on the processing

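Counts are of 5 probes unless said. The share of all probes called in each setting is not given here, so the counts show only how the Cyp1 calls moved. With saturated spots left out, the calls were 1 of 4 with TCDD 0.01 nM, 3 of 3 with TCDD 1 nM, 3 of 3 with PeCDF 2 nM and 2 of 3 with TCDF 10 nM. With the brightest probe of each gene alone, they were 3 of 3 with TCDD 1 nM and PeCDF 2 nM, 1 of 3 with TCDF 0.1 nM, 2 of 3 for the TCDD dose step, and 1 of 3 for the TCDF step and for each difference between TCDD and a furan. Fewer probes were tested in both settings. With the session's groups alone, 0 were called with TCDD 0.01 nM and 1 for the TCDF step. With TCDF 0.1 nM, 1 was called with the animal as a replicate block or with a missing orientation filled by the other. In an array-level fit with a dye term 3 were called there, but that fit counts dye swaps of the same RNAs as partly separate values. The scanner's log ratio and the deposited series values gave 0 for the TCDF step and 0 for both TCDD differences. Without background correction the TCDF step had 0 and these differences 1 each. The stricter filter on dim probes left 1 of 4 in each of these 3 comparisons. With test-channel levels alone the steps had 2 for TCDD, 0 for TCDF and 0 for PeCDF. The cause of these changes was not tested, other than where fewer probes entered. No called Cyp1 value changed sign in the alternatives run. Of the values not called 11 did, all of at most 0.25 on the log2 scale as reported. Not all of these alternatives were separate checks of the sign. Normalization between arrays, both filter settings, the brightest probe, each session alone and saturated spots left out kept unchanged every called value they still held. The deposited series values repeat the scanner's log ratio. Beside TCDF 0.1 nM, the replicate block changed the count of the PeCDF step alone, by the Cyp1a1 probe. Leaving out an animal leaves 1 value a group and no residual degrees of freedom, so it gave values without a test: 23 of 65 values moved by more than the spread between animals without animal A and 22 of 61 without animal B, and the called values lay at 0.701 to 1.24 and 0.807 to 1.43 times their fold with both animals.

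With 2 animals, differences between upper doses within the intervals given for Cyp1a2 probe 2 remain possible. The scanner's limit bounds Cyp1a1 in all groups with a compound, with PeCDF 0.02 nM on 1 of 4 arrays, and signals near background limit Cyp1b1 at the lower doses.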
